A study of Homo sapiens with 10 samples.

Results

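NFKB1 sites that stand alone in transformed cells are NFKB1 peaks on chromosomes 1 to 22 and X with no summit of FOS, JUN, JUNB or STAT3 within 300 bp of their own summit, the position with the most reads. Of the 73822 NFKB1 peaks of transformed cells, 9220 (12.5%) met this rule. They are a small part of the 879550 peaks in the 10 lists of the series. The other NFKB1 peaks lay near AP-1 and STAT3 (44783), near AP-1 without STAT3 (18744) or near STAT3 without AP-1 (1075), where AP-1 means FOS, JUN or JUNB and these 3 and STAT3 are called partners. The sites were thus selected on 2 measured things, an NFKB1 peak in transformed cells and the distance to partner summits of the same state.

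NFKB1 encodes p105 and its processed form p50, a DNA-binding subunit of NF-κB. NF-κB dimers are held in the cytoplasm by inhibitor proteins, enter the nucleus upon inflammatory signals and bind GC-rich sites upstream of cytokine, chemokine and survival genes. p50 lacks a transactivation domain, so that its dimers with RELA activate genes whereas its homodimers can occupy the same kind of site without doing so. AP-1 (dimers of FOS and JUN family proteins) and STAT3, which is activated by IL-6 family cytokines, bind other sequences, and in epithelial cells they often share enhancers with NF-κB. A site with NFKB1 and none of the partners is therefore an exception among the NFKB1 peaks listed here.

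Binding was measured by ChIP-seq in MCF10A-ER-Src cells, a breast epithelial line that carries the v-Src oncoprotein in a form switched on by tamoxifen. Transformed cells had received 1 μM 4-hydroxy-tamoxifen and were taken after 12 h, and non-transformed cells had not been induced; the library names inside the lists call them ethanol samples of 36 h. All cells of both states carry ER-Src and come from 1 line. Each of the 5 proteins has 1 library per state, so no difference below has a test or a replicate check, and the Wilson 95% intervals cover the sampling of sites only. Libraries held 4837474 to 22082403 reads after the filter, and the NFKB1 library of transformed cells, with 9674390 reads and 73822 peaks, was deeper than that of non-transformed cells, with 4837474 reads and 13252 peaks.

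The sites that stand alone were weak. Their fold enrichment over the local background, as estimated by the peak caller MACS, ran from 3.14 to 39.6 with a median of 5.30, whereas the median was 5.59 for NFKB1 peaks near AP-1 without STAT3, 5.60 near STAT3 without AP-1 and 7.69 near both. The pileup, which counts the reads covering the summit once each is extended to the fragment length, was at most 8 at 6774 sites (73.5%, 72.6 to 74.4%) and had a median of 7. The peaks were also short, with a median length of 133 bp against 195 bp for all other NFKB1 peaks. By class the median was 155 bp near AP-1 without STAT3, 160 bp near STAT3 without AP-1 and 220 bp near both. These values come from the list that defined the sites and are a description.

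Standing alone became rarer with each step in significance. Among NFKB1 peaks with a −log10 q under 2, where q is the adjusted p-value of the peak caller, 211 of 574 (36.8%, 32.9 to 40.8%) stood alone. The share was 20.6% from 3 to 5 and 6.32% from 10 to 20, and fell to 3 of 1020 peaks (0.294%, 0.10 to 0.861%) at 80 or more. A −log10 q of at least 10 was reached by 1272 of the 9220 sites, or 13.8%, beside 35.3% of all NFKB1 peaks. A value of at least 20, called strong below, was reached by 312 sites, or 3.38%, beside 14.8% of all NFKB1 peaks. One of at least 40 was reached by 39 sites, or 0.423%, beside 5.25% of all.

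**Figure D1:**
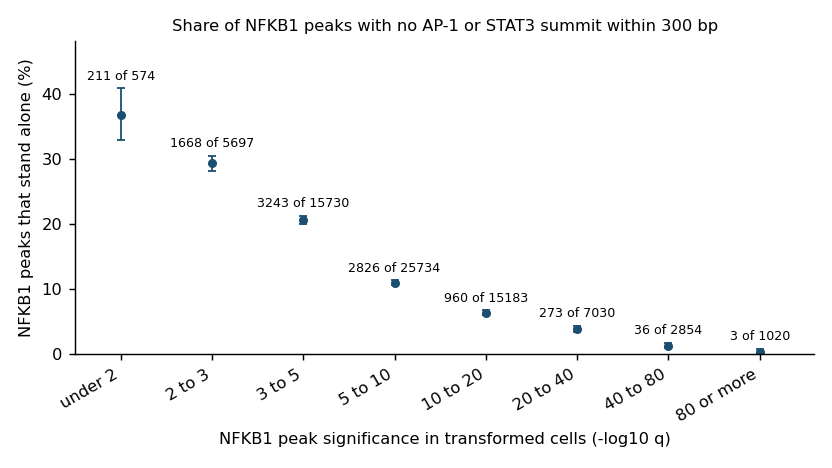
The share of NFKB1 peaks of transformed cells that stand alone (vertical axis, %) in 8 bins of peak significance (horizontal axis, −log10 q); bars are Wilson 95% intervals and the labels give counts. The share falls from 36.8% in the weakest bin to 0.294% in the strongest.

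Most of the sites were well separated from any partner. The median distance to the nearest partner summit was 2734.5 bp, with 6627 sites (71.9%) over 1 kb away and 1851 (20.1%) over 10 kb away. FOS was the nearest partner at 3504 sites, JUN at 2507, JUNB at 1649 and STAT3 at 1560, which is 38.0%, 27.2%, 17.9% and 16.9% of the sites. The same proteins make up 34.8%, 26.9%, 21.3% and 17.0% of all partner summits, and the order of the proteins is the same in both.

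On either side of the limit of 300 bp the median strengths lay close together. The 174 sites with a partner up to 20 bp past the limit had fold enrichments from 3.27 to 29.4 with a median of 4.92. The 200 NFKB1 peaks with a partner in the last 20 bp before it ranged from 3.25 to 39.4 with a median of 5.07. Few sites touched a partner peak with their edges: at 281 sites (3.05%) the deposited NFKB1 interval shared at least 1 bp with a partner interval although the summits lay apart. The number of sites depends on weak partner peaks. It was 19815 when only partner peaks with a −log10 q of at least 10 were counted.

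In non-transformed cells, NFKB1 had a summit within 300 bp at 611 of the 9220 sites (6.63%, 6.14 to 7.15%), beside 16.2% of all NFKB1 peaks of transformed cells. The shares were also set side by side within bins of equal strength. Between a −log10 q of 10 and 20, NFKB1 was listed in non-transformed cells at 198 of 960 sites that stand alone (20.6%, 18.2 to 23.3%) and at 19.0% (18.4 to 19.7%) of the other peaks of that strength. Between 20 and 40 the shares were 45.8% (39.98 to 51.7%) and 46.7% (45.5 to 47.9%), and between 40 and 80 they were 83.3% (68.1 to 92.1%) and 80.9% (79.5 to 82.4%), so the intervals overlapped in all 3 bins. Below a −log10 q of 5 the sites that stand alone were listed at a lower share. It was 1.02% (0.637 to 1.63%) against 3.62% (3.09 to 4.25%) from 2 to 3 and 1.97% (1.55 to 2.51%) against 3.52% (3.21 to 3.85%) from 3 to 5. The intervals did not overlap in either of these bins. Under 2 it was 0.948% (0.260 to 3.39%) against 4.41% (2.73 to 7.04%), and the intervals overlapped.

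AP-1 gave the opposite picture. A FOS, JUN or JUNB summit of non-transformed cells lay at 934 sites that stand alone (10.1%, 9.53 to 10.8%), beside 76.0% of all NFKB1 peaks. This share did not climb with the strength of the NFKB1 peak up to a −log10 q of 80: it was 9.41% (8.10 to 10.9%) from 2 to 3, 10.1% (9.03 to 11.2%) from 5 to 10 and 10.99% (7.81 to 15.3%) from 20 to 40. Over the same bins, 77.6%, 85.7% and 88.0% of the other NFKB1 peaks had AP-1 in non-transformed cells. The 3 strongest sites are the exception, and all 3 had AP-1 there. The AP-1 lists of both states overlap widely, with 83.0% of FOS, 79.0% of JUN and 74.4% of JUNB summits of non-transformed cells found again in transformed cells. Since the rule removed sites with AP-1 in transformed cells, a low share in non-transformed cells is in part built in.

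**Figure D2:**
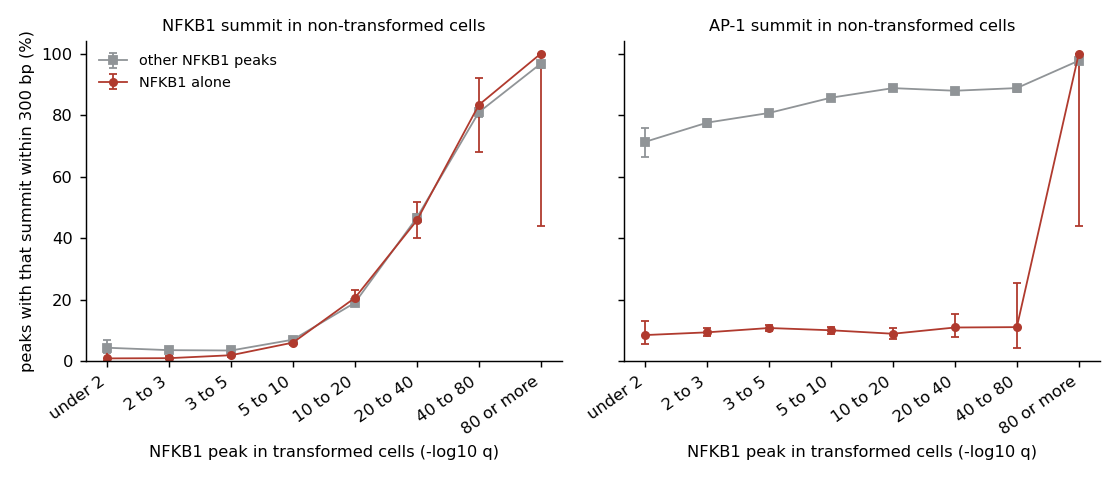
NFKB1 peaks of transformed cells with an NFKB1 summit (left) or an AP-1 summit (right) of non-transformed cells within 300 bp (vertical axis, %), by peak significance (horizontal axis, −log10 q); circles are sites that stand alone, squares all other NFKB1 peaks, and bars Wilson 95% intervals. From 5 to 80 the circles and squares lie close together on the left, while on the right the circles stay between 8.96% and 11.1% and the squares between 85.7% and 88.8%.

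The share of sites with AP-1 in non-transformed cells was highest just past the distance limit, although 504 of the 934 such sites lay over 1 kb from any partner of transformed cells. AP-1 was listed at 33.7% (29.3 to 38.4%) of sites whose nearest partner in transformed cells was over 300 and up to 350 bp away, at 15.3% (12.3 to 18.9%) over 400 and up to 500 bp, at 8.04% (6.74 to 9.57%) over 1 and up to 2 kb and at 6.43% (5.40 to 7.64%) over 10 kb. STAT3 of non-transformed cells fell in the same way, from 12.1% (9.33 to 15.6%) in the first of these bins to 0.972% (0.616 to 1.53%) in the last. NFKB1 itself had 8.25% (5.97 to 11.3%) in the first and 6.05% (5.05 to 7.23%) in the last. Its share did not fall steadily between them, and was lowest over 500 and up to 750 bp, with 4.37% (3.19 to 5.97%). The sites just past the limit thus had the highest shares of AP-1 and STAT3 in the other state. By definition they also have a partner summit of transformed cells just past 300 bp. Of the FOS and STAT3 summits of non-transformed cells, 83.0% and 70.9% were found again in transformed cells. The fall of AP-1 and STAT3 with distance is thus in part built in.

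**Figure D3:**
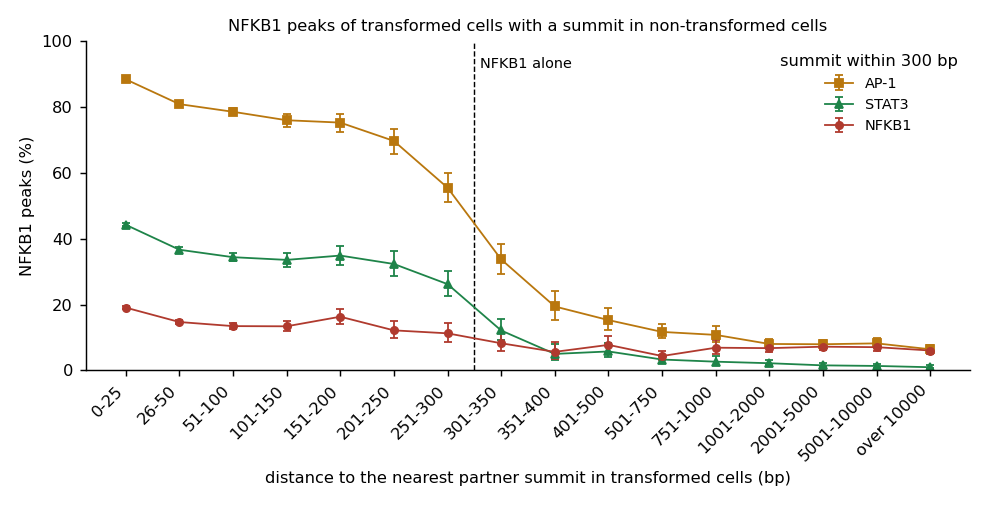
NFKB1 peaks of transformed cells with an AP-1 (squares), STAT3 (triangles) or NFKB1 (circles) summit of non-transformed cells within 300 bp (vertical axis, %), by distance to the nearest partner summit in transformed cells (horizontal axis, bp, bins of unequal width); bars are Wilson 95% intervals and sites right of the dashed line stand alone. AP-1 drops from 55.5% in the last 50 bp before the line to 6.43% over 10 kb, and NFKB1 from 11.3% to 6.05%.

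Among the partners of non-transformed cells, JUN was listed most often. A JUN summit lay at 535 of the sites that stand alone (5.80%, 5.34 to 6.30%, beside 58.9% of all NFKB1 peaks), a FOS summit at 373 (4.05%, 3.66 to 4.47%, beside 68.3%), a STAT3 summit at 233 (2.53%, 2.23 to 2.87%, beside 36.6%) and a JUNB summit at 184 (1.996%, 1.73 to 2.30%, beside 49.4%). The ratio of JUN to FOS was thus 1.43, whereas at the other NFKB1 peaks the ratio was 0.859 and between the whole lists 0.680. NFKB1 peaks near STAT3 without AP-1, the other class with no AP-1 in transformed cells, gave a like ratio of 1.41, with 188 JUN against 133 FOS. The ratio was 1.49 among sites over 1 kb from any partner, with 302 against 203. It was 1.25 at a −log10 q of at least 10 (66 against 53) and 1.29 at a value of at least 20 (22 against 17). At both values the intervals of the JUN and FOS shares overlapped. The rule removed sites near the 164605 FOS or 127335 JUN summits of transformed cells, and its part in the ratio was not tested. JUN without FOS was seen at 446 sites, or 4.84%, beside 6.70% of all NFKB1 peaks. FOS without JUN was seen at 284, or 3.08%, beside 16.0% of all, and both at 89. Of the 81444 JUN summits of non-transformed cells, 79.0% had a JUN summit in transformed cells and 17122 had none. Of the 119754 FOS summits, 83.0% had a FOS summit in transformed cells and 20304 had none. JUN can pair with itself and with ATF proteins as well as with FOS, and the part of this in the ratio was not tested.

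These partner peaks were weak. The median fold enrichment at the sites was 5.12 for JUN against 6.26 over its whole list, 5.23 against 8.75 for FOS, 4.94 against 7.35 for JUNB and 5.60 against 6.84 for STAT3. Individual exceptions reached 14.8 for JUN, 29.5 for FOS, 17.9 for JUNB and 31.1 for STAT3.

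By the lists of non-transformed cells, the sites fall into 4 kinds. At 7674 sites (83.2%, 82.5 to 84.0%) none of the 5 proteins was listed, so that 1546 sites had a summit of some kind (16.8%, beside 79.1% of all NFKB1 peaks). At 935 sites (10.1%) at least 1 partner was present without NFKB1, and at 126 (1.37%) with NFKB1, which makes 1061 sites with a partner (11.5%, beside 77.5% of all NFKB1 peaks). The remaining 485 sites (5.26%, 4.82 to 5.73%) had NFKB1 in both states and no partner in either.

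These 485 sites are the ones where 2 separate libraries show NFKB1 with none of the 8 partner libraries. They make up 79.4% (76.0 to 82.4%) of the 611 sites with NFKB1 in both states. Their fold enrichment in transformed cells ran from 4.03 to 31.5 with a median of 9.09 (8.56 to 9.79). The median was 5.14 for the 7674 sites found in no list of non-transformed cells. For the 126 sites with NFKB1 and a partner there, the interval of the median, 7.44 to 9.28, overlapped that of the 485. Higher values than at the 7674 sites were thus not limited to sites without a partner. Strong sites were more often listed in the shallower NFKB1 library of non-transformed cells. The share was 1.97% at a −log10 q from 3 to 5 and 45.8% from 20 to 40. Higher values at sites with NFKB1 in both states are therefore in part built in. At the 485 sites the nearest partner of transformed cells was at a median of 3109 bp. Among the 312 strong sites the 485 are represented by 125 (40.1%), beside 146 (46.8%) in no list of non-transformed cells and 41 with a partner there.

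Where NFKB1 was listed in both states, its position was nearly the same. At the 611 sites the summits of the 2 states were a median of 22 bp apart (20 to 25 bp), and 493 pairs (80.7%) lay within 50 bp. At the 158 strong ones the median was 16.5 bp. The other NFKB1 peaks found in both states gave 25 bp (24 to 26 bp).

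The read density was not higher after transformation at most of these sites. The pileup per 1000000 filtered reads had a median of 1.24 in transformed and 1.65 in non-transformed cells, and the median of the ratios was 0.700 (0.667 to 0.731), with 160 of 611 sites (26.2%) higher in transformed cells. At the other NFKB1 peaks found in both states the ratio was 1.04 (1.00 to 1.06), and at those near AP-1 without STAT3 it was 0.821 (0.800 to 0.833), with 37.3% higher in transformed cells. Among strong sites it was 1.06 (1.00 to 1.13) for those that stand alone and 1.31 (1.29 to 1.33) for the others. Each of these sites had passed the peak threshold in both libraries, and the part of that threshold in the ratios was not tested. Reads were extended to 120 bp in the transformed and 135 bp in the non-transformed NFKB1 library, which the ratios do not correct for. Fold enrichment, which is not scaled by depth, went the other way at the 611 sites. Its median was 9.09 (8.45 to 9.41) in transformed and 7.25 (7.14 to 7.25) in non-transformed cells. Across the 611 sites the fold enrichments of both states had a Spearman coefficient of 0.427, given as a description, since the sites share both libraries and both thresholds.

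**Figure D4:**
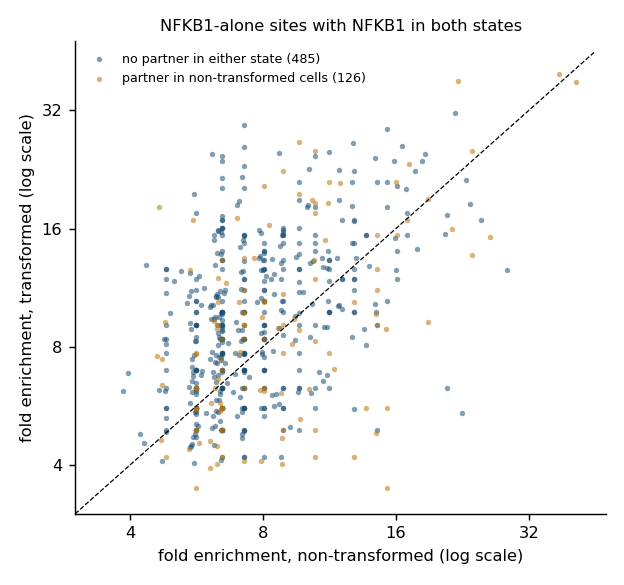
NFKB1 fold enrichment over local background in non-transformed (horizontal axis) and transformed cells (vertical axis), both on log scales, for the 611 sites that stand alone and have NFKB1 in both states; 485 have no partner in either state and 126 have a partner in non-transformed cells. The points scatter widely about the dashed line of equal values, and the columns of points come from the small whole numbers of reads in the non-transformed library.

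The sites with the highest fold enrichment differed from the class as a whole. Ranked by it, 9 of the first 10 had NFKB1 in both states, against 6.63% of all 9220 sites. All 10 had a −log10 q of at least 40. At that strength the share was 84.6% (70.3 to 92.8%) for sites that stand alone and 85.1% (84.0 to 86.2%) for other NFKB1 peaks. A partner summit lay within 500 bp at 5 of the 10, against 12.8% of all, and 4 of the intervals shared bases with a partner peak, against 3.05% of all. The other 5 had no partner within 1 kb. Positions are those of the lists in the build hg19, and the genes around them were not analysed here.

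The site with the highest fold enrichment, chr9:89598195-89598961, had 39.6 in transformed and 37.5 in non-transformed cells, with pileups of 59 and 47. Its peak is 767 bp long, the nearest partner, JUN, lay 371 bp from its summit, and in non-transformed cells JUN (fold enrichment 11.2) and JUNB (4.79) had summits 19 and 64 bp away. Chr5:157811549-157812546 is a long peak of the same type, with 38.1 in transformed and 22.1 in non-transformed cells, FOS at 340 bp and a weak JUN summit (3.84) of non-transformed cells at 247 bp. At both, the NFKB1 interval shared bases with a partner peak although the summits lay apart.

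Chr2:174856136-174856611 had a fold enrichment of 37.8 in transformed and 41.0 in non-transformed cells, with summits 5 bp apart. Its nearest partner in transformed cells was a JUN summit 8492 bp away. In non-transformed cells, weak FOS (4.03) and JUN (4.84) summits lay 46 and 184 bp from the NFKB1 summit. Its pileup per 1000000 reads was 5.69 in transformed and 10.5 in non-transformed cells, the lower value thus being that of transformed cells.

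Chr3:155408764-155409072 was the strongest site without a partner in either state. Its fold enrichment was 31.5 in transformed and 21.7 in non-transformed cells, the summits were 1 bp apart, and the nearest partner, STAT3, was 14682 bp away. Chr14:96922614-96922820 was more remote still, at 28179 bp from a STAT3 summit, with fold enrichments of 26.4 and 12.8. Chr2:106814462-106814748, with 28.7 and 15.3, had its nearest partner, FOS, at 3775 bp. The nearest summit in any of the 8 partner lists was at this last site, a JUN summit of non-transformed cells 3299 bp away.

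The others of the first 10 had partners closer by. Chr1:10589775-10590152 had 29.4 in transformed and 7.25 in non-transformed cells and a FOS summit at 311 bp, just past the limit. Chr7:101526035-101526849 had 26.6 and 9.66, with STAT3 at 325 bp in transformed cells and at 284 bp, with a fold enrichment of 11.8, in non-transformed cells. Chr8:130994202-130994512 had 25.9 and 16.5 with JUN at 466 bp. Among sites with NFKB1 in both states, the tenth was chr15:81068815-81069064, with 25.9 and 7.25 and STAT3 at 695 bp.

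The remaining site of the first 10, chr6:64872203-64872453, had no summit of any protein in non-transformed cells within 300 bp. It had a fold enrichment of 26.6 from 37 reads at the summit, and the nearest NFKB1 summit of non-transformed cells was 355925 bp away. Of the 39 sites with a −log10 q of at least 40, 6 had no NFKB1 summit in non-transformed cells. The other 5 were chr5:162408613-162408879, chr6:72104700-72104894, chr15:62774939-62775216, chr14:62230104-62230356 and chr3:146229146-146229403, with fold enrichments of 22.3, 22.2, 22.1, 21.9 and 21.5, respectively. Of these, chr6:72104700-72104894 lay beside a region bound in non-transformed cells, with all 5 proteins at 674 to 762 bp from its summit. At the other sites of the 6 the nearest partner of non-transformed cells was 2532 bp or more away.

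Standing alone was not peculiar to NFKB1. By the same rule, 24.98% of FOS peaks of transformed cells stood alone, 16.0% of JUN, 10.8% of STAT3 and 7.68% of JUNB, beside 12.5% of NFKB1. The order was another among peaks with a −log10 q of at least 20: 2.86% of NFKB1 (2.56 to 3.19%), 2.05% of STAT3 (1.88 to 2.24%), 0.762% of FOS, 0.674% of JUN and 0.0298% of JUNB. The libraries differ in depth, and each protein is set against 4 other lists, so that FOS is not set against its own list, the longest.

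Lone peaks of each protein had a lower share found again in non-transformed cells than its other peaks. At a −log10 q of at least 20, a STAT3 peak that stood alone had STAT3 in non-transformed cells in 52.7% (48.2 to 57.1%) of cases against 69.0% of the other STAT3 peaks, and a FOS peak in 55.9% (51.3 to 60.4%) against 91.9%. For NFKB1 the values were 50.6% (45.1 to 56.1%) and 60.6% (59.7 to 61.5%) and for JUN 80.7% (74.8 to 85.4%) and 88.9%. JUNB had 10 lone peaks of this strength, of which 6 were found again (31.3 to 83.2%), against 89.4% of its others. The intervals of the lone shares of NFKB1, STAT3 and FOS overlapped. The median fold enrichment of these NFKB1 peaks was 15.4 where they stood alone and 17.9 elsewhere, and within the narrower bins of significance given above the intervals overlapped.

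The sites were spread over all chromosomes. Their share of the NFKB1 peaks was lowest on chromosomes 20 (9.48%, 8.17 to 10.97%), 19 (9.53%, 8.13 to 11.1%), 22 (9.94%) and 17 (9.95%). It was highest on the X chromosome (276 of 1729 peaks, 15.96%, 14.3 to 17.8%), followed by chromosomes 4 (14.3%), 7 (14.2%) and 21 (14.1%). Among peaks with a −log10 q of at least 10, X was again highest with 8.41% (6.399 to 10.97%), while the values of all other chromosomes lay between 3.23% and 5.99%.

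**Figure D5:**
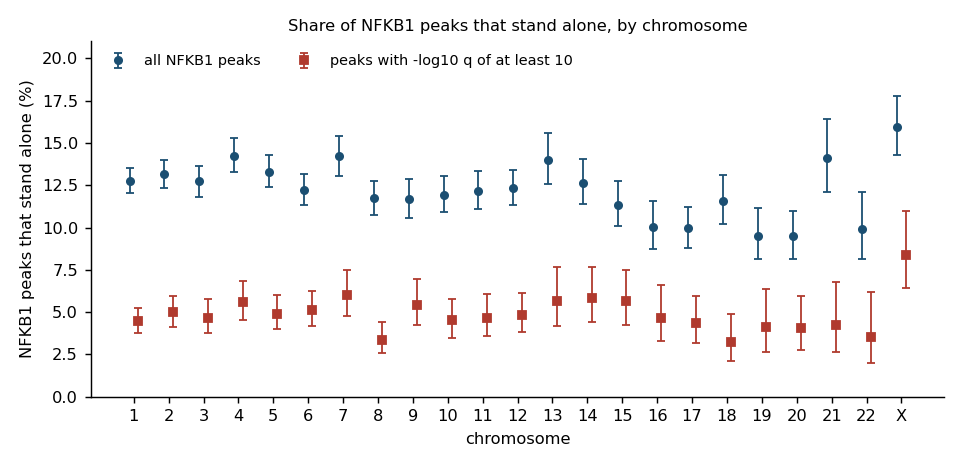
The share of NFKB1 peaks of transformed cells that stand alone (vertical axis, %) on each chromosome (horizontal axis), for all peaks (circles) and for peaks with a −log10 q of at least 10 (squares); bars are Wilson 95% intervals. X is highest in both, with 15.96% and 8.41%.

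The background that MACS set against a peak also varied by chromosome. It can be recovered from the pileup and the fold enrichment, and its lowest value, 0.430 reads, equals the genome-wide mean from the header. The background was at this floor at 4175 sites (45.3%, beside 44.2% of all NFKB1 peaks) and over 1.4 times the floor at 811 sites (8.80%, beside 12.1% of all). Of these 811 sites, 587 lay on chromosomes 1, 5 and 8, which is 72.4%, and of all NFKB1 peaks with such a background 67.2% did. On chromosome 1, 35.1% of the sites had such a background beside 42.1% of all NFKB1 peaks. The values were 22.6% beside 31.6% on chromosome 8 and 20.3% beside 29.4% on chromosome 5. No peak had it on X or on chromosomes 16, 17, 19 and 22. The share of peaks that stand alone was 15.96% on X, but 10.0%, 9.95%, 9.53% and 9.94% on those chromosomes, respectively. The higher the background, the more reads a peak needs for the same fold enrichment, and the part of this in the chromosome shares was not tested.

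NFKB1 peaks that stand alone were also more distant from each other's kind. Another NFKB1 summit of transformed cells lay within 10 kb of 5057 sites (54.8%, 53.8 to 55.9%), beside 65.5% of all NFKB1 peaks. The median distance to the next NFKB1 summit was 8001 bp (7584 to 8458 bp) against 4252 bp (4154 to 4343 bp) for the other NFKB1 peaks. This distance rose with the distance to the partners. It was 842 bp for sites with a partner within 1 kb, 12665 bp for those over 1 kb and 30582 bp for those over 10 kb away. Of the 73822 NFKB1 peaks, 64602 lay within 300 bp of a partner. A site far from any partner is thus also far from these peaks, and the longer distances are in part built in. Another lone NFKB1 site lay within 10 kb of 1320 sites (14.3%) and within 1 kb of 331 (3.59%). These shares were not set against evenly spread sites or other peaks, so whether the sites came in groups was not tested.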

How the data were processed

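ChIP-seq peak lists of FOS, JUN, JUNB, NFKB1 and STAT3 were analysed, with 1 sample per protein in each of the transformed and non-transformed states. The submitters' processing notes name hg19, Bowtie and MACS2. Per the file headers, the authors ran MACS version 2.0.10.20131216 on each library by itself, with no control. Reads were 36 bp and uniquely aligned, duplicates were reduced to 1 per position, the regional background spanned 1000000 bp, the genome size was set to 2700000000 bp and peaks passed a q-value of 0.05. The deposited pileup is a signal, extended reads covering the summit, and is not scaled by depth. The deposited significance is −log10 of the p-value and q-value against the background of the same library. Fold enrichment, as deposited, is a ratio, (pileup + 1)/(local background + 1). Positions are deposited 1-based. Without a control library, regions that recover reads with any antibody stay in the lists.

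Distances were taken between summits on chromosomes 1 to 22 and X, and a partner at exactly 300 bp excluded a site. Local background was computed from it, as (pileup + 1)/fold − 1. Shares have Wilson 95% intervals and medians order-statistic 95% intervals, which cover counting only. Python 3.11.15 with numpy 2.4.6, pandas 2.3.3, scipy 1.17.1 and matplotlib 3.10.9 was used. Distances and shares were tested on simulated data with known answers. The members, lists and settings were chosen with earlier results of these data known. Sites named are the 10 of highest fold enrichment, the 10 of highest fold enrichment with NFKB1 in both states and, chosen after their values were seen, the 6 strongest without it and the 5 of the closing section.

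The lists run to 249200747 on chromosome 1, past the 248956422 bp of the GRCh38 reference used here. Sequences, motifs, transcription starts and gene lists, which need hg19, were planned and were not analysed here. Peaks on other chromosomes were not used. Alternatives were other distances, whole peaks, stricter thresholds, and other sets of partner lists.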

Additional observations from a re-analysis of the deposited data

How the results depend on the processing

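With 1 library per protein and state, a replicate could not be left out. No paired analysis was possible because each group has 1 sample and no result comes from a test. The number of sites, 9220, stayed within 1.5 times under 9 of 12 alternatives, from 6627 with a distance of 1000 bp to 11834 without the FOS list. It was 1272 with NFKB1 peaks of −log10 q of at least 10, 312 with at least 20 (added after seeing the data) and 19815 with partner peaks of at least 10, settings that drop or free sites by construction. The share with NFKB1 in non-transformed cells, 6.63%, was 7.98% with a distance of 150 bp, 9.34% with stricter partner peaks, 5.94% with partner lists of both states, and 28.0% and 50.6% with stricter and strong NFKB1 peaks. The share with AP-1 in non-transformed cells, 10.1%, was 20.99% at 150 bp, 7.61% at 1000 bp, 12.0% with whole peaks, 33.6% with stricter partner peaks and 11.9% with strong NFKB1 peaks. Partner lists of both states give no such share, since they remove these sites. The median fold enrichment, 5.30, was 5.43 at 1000 bp, 5.21 with whole peaks, 10.4 with stricter NFKB1 peaks and 5.57 with stricter partner peaks. Planned results on transcription starts and motifs were not run, for want of an hg19 genome. The 4837474 reads of the non-transformed NFKB1 library limit what can be said of weak sites there.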

Other observations

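Seen from non-transformed cells, 1677 of the 13252 NFKB1 peaks (12.7%, 12.1 to 13.2%) had no partner summit of that state within 300 bp. NFKB1 was listed again in transformed cells at 1187 of them (70.8%, 68.6 to 72.9%), beside 89.3% (88.7 to 89.8%) of all 13252 peaks. At 485 of the 1187 (40.9%, 38.1 to 43.7%) no partner was listed in transformed cells either, and at 702 (59.1%, 56.3 to 61.9%) at least 1 partner was. Among these 702 sites, FOS was present at 493 (70.2%), JUN at 389 (55.4%), STAT3 at 326 (46.4%) and JUNB at 184 (26.2%). The shares with a partner in transformed cells are a description and are not set against those of all NFKB1 peaks of non-transformed cells. FOS, JUN and JUNB have deeper libraries in transformed than in non-transformed cells and STAT3 a shallower one, and the part of depth in these counts was not tested.

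Of the 485 sites with NFKB1 in both states and no partner in either, 93 lay over 10 kb from any partner summit of transformed cells. The 5 with the highest fold enrichment, chosen after their values were seen, include chr3:155408764-155409072 and chr14:96922614-96922820, described above. The other 3 are chr3:109203785-109204060, with a fold enrichment of 24.5 in transformed and 10.5 in non-transformed cells and the nearest partner, FOS, at 42307 bp; chr5:84037374-84037659, with 24.5 and 6.44 and JUN at 10008 bp; and chr18:51483904-51484203, with 23.8 and 6.44 and FOS at 10936 bp. At the first of these a STAT3 summit of non-transformed cells lay 436 bp away, outside the limit of 300 bp.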
